A study of Mus musculus with 8 samples.

Results

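The genes described here make or break down leukotrienes and prostaglandins, the lipid mediators that cells produce from arachidonic acid. They are Alox5, Alox5ap, Lta4h and Ltc4s of the leukotriene arm, Ptgs1, Ptgs2, Ptges and Hpgds of the prostaglandin arm, Hpgd, which inactivates prostaglandins, and the 12/15-lipoxygenase gene Alox15. They were chosen by symbol, 10 of the genes in the count matrices, and all 10 had UMIs (unique molecular identifiers, which count captured RNA molecules) in the cells kept. The data were droplet single-cell RNA sequencing, read from the 5′ end of transcripts, of CD45.2-positive cells sorted from perfused mouse brains. There were 8 libraries, 1 for each combination of genotype (WT C57BL/6J, or AppNL-G-F, a knock-in line whose App gene carries a humanized amyloid-beta sequence with the Swedish, Arctic and Iberian mutations) and treatment (control, food allergy, acute colitis or chronic colitis). The labels give an age of 16 weeks for all mice, and the study's methods a younger one. Control mice drank water, acute colitis was induced with 2% dextran sulfate sodium for 1 cycle, chronic colitis with 3 cycles of 2% dextran sulfate sodium and water, and food allergy by sensitization to ovalbumin with alum followed by oral ovalbumin. Cells of several samples were marked with hashtag antibodies (numbered 4 to 7) and pooled in each library, and which sample or animal each number stands for is not given in the labels. The study compared colitis and food allergy with control mice of both genotypes to ask how intestinal inflammation changes immune cells in the brain.

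Each library held 4874 to 7199 kept cells with a median of 2777 to 4130 UMIs, 50088 cells in all. A cell was given a type when it lay in a cluster named from marker genes and itself held UMIs of at least 2 of that type's markers, which was so for 44527 cells (88.9%) in 23 types. The names stand for cells like these types, since sorting markers were not read, and the neutrophil precursors include a cluster led by histone genes. Levels are given as CPM, the gene's UMIs per 1000000 UMIs of the type, and as the share of cells with at least 1 UMI. Because deep cells show a gene more often, shares are also given after thinning every cell to 1500 UMIs. In most libraries some hashtag groups had low and others high levels of immediate-early genes (Fos, Egr1 and others induced within minutes of a stimulus), and these values are given where they move with a result. Any pair of libraries shared at most 72 cell barcodes. Microglia, the resident macrophages of the brain, were the cells of the macrophage cluster with more microglia than macrophage markers, and they were rare, with 60 cells in all and at least 10 cells in 2 libraries.

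Arachidonic acid is released from membranes by phospholipases. 5-lipoxygenase (Alox5), helped by its activating protein (Alox5ap), turns it into leukotriene A4. From there Lta4h makes leukotriene B4, which attracts neutrophils, and Ltc4s makes leukotriene C4, the parent of the cysteinyl leukotrienes of allergic inflammation. The cyclooxygenases Ptgs1, which is constitutive in many cells, and Ptgs2, which is induced by inflammatory and mitogenic stimuli, make prostaglandin H2. Ptges converts it to prostaglandin E2 and Hpgds to prostaglandin D2, and Hpgd oxidizes prostaglandins to inactive products. Alox15 makes other hydroxylated fatty acids and pro-resolving lipids. Neutrophils, basophils, mast cells and macrophages are well known sources of these mediators.

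All 10 genes are protein coding. On GRCm38 with GENCODE vM21 annotation, Alox5 spans chr6:116410077-116461178, Alox5ap chr5:149264767-149288153, Lta4h chr10:93453411-93484875 and Ltc4s chr11:50236461-50238616. Ptgs1 spans chr2:36230426-36252272, Ptgs2 chr1:150100031-150108227, Ptges chr2:30889471-30929863, Hpgds chr6:65117293-65144908, Hpgd chr8:56294585-56321043 and Alox15 chr11:70344152-70352031. Alox5, Ltc4s, Ptges, Hpgds and Alox15 are on the minus strand and the others on the plus strand.

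The start regions of the cyclooxygenase genes are shown because 7 of the 11 tested differences given below were of Ptgs2 and 1 was of Ptgs1. The windows run from 250 bases before to 50 after the RefSeq start on GRCm38.p6, at chr1:150099781-150100080 for Ptgs2 and chr2:36230176-36230475 for Ptgs1, both on the plus strand. Capitals mark matches to 6 motifs searched on both strands.
Ptgs2: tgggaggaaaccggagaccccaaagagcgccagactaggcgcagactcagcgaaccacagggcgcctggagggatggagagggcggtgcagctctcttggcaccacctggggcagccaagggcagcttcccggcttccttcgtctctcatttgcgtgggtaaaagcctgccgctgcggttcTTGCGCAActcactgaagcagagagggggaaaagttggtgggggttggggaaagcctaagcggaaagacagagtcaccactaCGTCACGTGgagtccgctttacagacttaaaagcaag
Ptgs1: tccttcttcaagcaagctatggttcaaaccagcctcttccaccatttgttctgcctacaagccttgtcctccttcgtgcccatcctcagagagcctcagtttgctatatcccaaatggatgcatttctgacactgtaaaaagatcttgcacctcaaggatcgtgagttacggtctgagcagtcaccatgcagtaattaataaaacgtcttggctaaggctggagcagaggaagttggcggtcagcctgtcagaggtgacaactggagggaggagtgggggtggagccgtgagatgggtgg
In the Ptgs2 window, the C/EBP palindrome TTGCGCAA began at base 182, and a short cAMP response element, TGACG, lay on the reverse strand at base 264, overlapping the E-box CACGTG at base 267. The full cAMP response element TGACGTCA, the TATA box TATAAA and the AP-1 site TGANTCA had no match in it, and the Ptgs1 window had no match to any of the 6. Of 32851 promoter windows of this length, 0.183% held TTGCGCAA, 20.8% TGACG, 7.15% CACGTG, 1.79% TGACGTCA, 13.6% TATAAA and 7.81% TGANTCA. Windows were found for 8 of the 10 genes, and a match is a description of letters only.

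Alox5 was highest in basophils, followed by mast cells, neutrophils and ILC2 (group 2 innate lymphoid cells). In basophils it reached 522 CPM, with 428 to 625 CPM (median 526) in the 7 libraries with at least 10 basophils, and 79.1% of 383 cells had a UMI, 53.7% after thinning. Mast cells held 204 CPM (128 to 287 in 8 libraries) and neutrophils 174 CPM (130 to 214). Every basophil library lay above every mast cell and neutrophil library, and the ranges of mast cells and neutrophils overlapped. ILC2 held 73.1 CPM (44.2 to 109), below every neutrophil library, macrophages 34.5 CPM and plasmacytoid dendritic cells 27.5 CPM. Because neutrophils were many and rich in RNA, 69.7% of all Alox5 UMIs were theirs. B cells served as a background type, and 0.0860% of 6980 B cells had an Alox5 UMI at a median of 2361 UMIs per cell, against 4449 UMIs in basophils.

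Alox5ap was spread over the whole myeloid compartment. Neutrophils had the highest summed level, 4232 CPM, and held 59.4% of its UMIs. Their libraries ranged most widely, with 6802, 1710, 2131 and 2977 CPM in WT control, WT acute colitis, WT chronic colitis and WT food allergy and 3751, 5969, 2915 and 2999 CPM in the same order in AppNL-G-F. Thus the highest library was WT control and the lowest WT acute colitis, and the treatments overlapped. Monocytes followed with 2732 CPM (1949 to 3448) and basophils with 2357 CPM (1347 to 3572), both overlapping neutrophils. The dendritic cell types were more even, at 1528 CPM (1359 to 1810) in type 1, 1397 CPM (1220 to 1588) in type 2 and 1181 CPM (1086 to 1370) in plasmacytoid dendritic cells. Mast cells held 825 CPM, neutrophil precursors 811 CPM and macrophages 803 CPM. A UMI of Alox5ap was found in 96.5% of neutrophils (96.2% after thinning), and in 2.18% of B cells (1.30% after thinning).

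Lta4h was the most widely expressed of the genes, with UMIs in T, B, NK and myeloid cells alike. Neutrophils had 338 CPM (300 to 352), above every library of the next type, neutrophil precursors, with 234 CPM (203 to 273). NK cells came next with 221 CPM (197 to 249), overlapping the precursors, and basophils, CD8 T cells and CD4 T cells with 139, 138 and 119 CPM. The share of cells with a UMI was 54.3% in neutrophils and 50.3% in NK cells, and after thinning 28.5% and 28.7%, so that the higher level in neutrophils was not a higher share of cells at equal depth. B cells held 52.8 CPM (44.7 to 64.4). It was also the most stable gene across libraries, as given below.

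Ltc4s was highest in tissue macrophages, with a lower level in mast cells and few UMIs in basophils. The 60 microglia held 87 UMIs, 288 CPM, but their libraries with at least 10 cells were apart, at 24.7 CPM in AppNL-G-F control and 231 CPM in AppNL-G-F food allergy. Macrophages held 143 CPM and 60.5% of all Ltc4s UMIs. Their values were 103, 174, 83.1 and 42.4 CPM in WT control, WT acute colitis, WT chronic colitis and WT food allergy, and 85.5, 266, 197 and 117 CPM in AppNL-G-F. Acute colitis gave the highest value of WT and of AppNL-G-F. Migratory dendritic cells held 38.1 CPM (0 to 102 in 6 libraries), hematopoietic progenitors 22.1 CPM and mast cells 21.7 CPM (0 to 39.5). The 383 basophils, with the highest Alox5 level, had 6 Ltc4s UMIs in all and at most 7.15 CPM in any library with at least 10 of them.

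**Figure D1:**
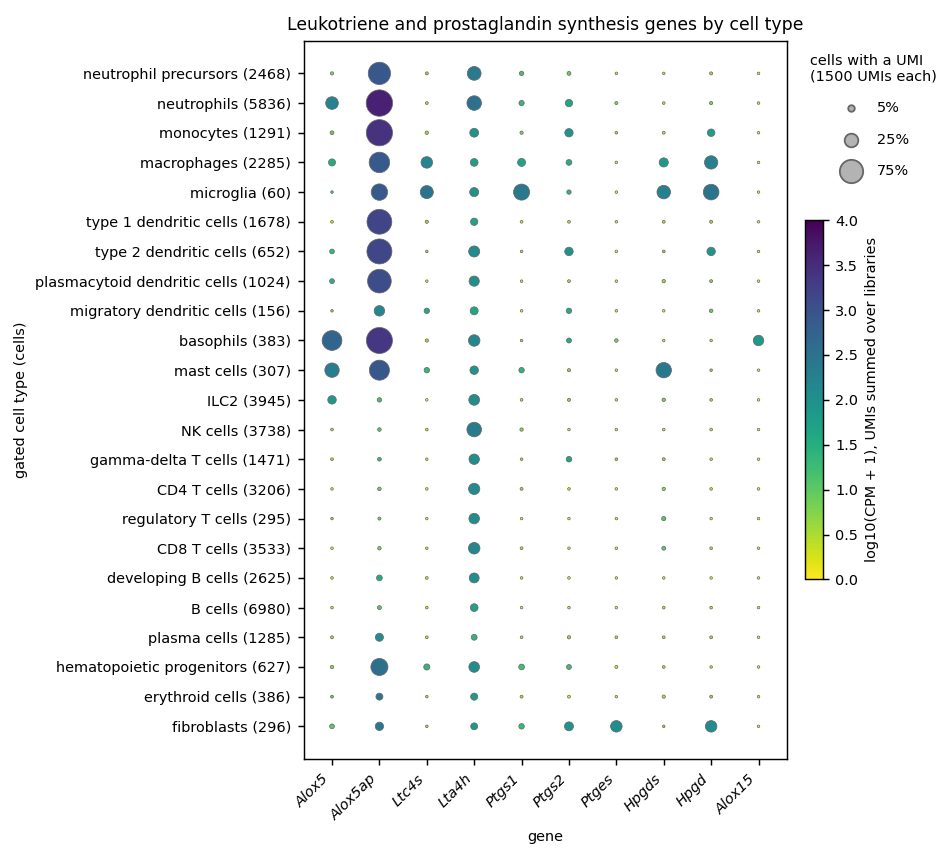
The plot shows the 10 genes (columns) in 23 gated cell types (lines, with their number of cells), dot area for the share of cells with a UMI after thinning to 1500 UMIs and colour for log10(CPM + 1) of summed UMIs. Read down each column, Alox5 is darkest in basophils (522 CPM), Ptges in fibroblasts (107 CPM) and Alox15 in basophils (75.5 CPM), whereas Lta4h and Alox5ap reach many types.

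**Figure D2:**
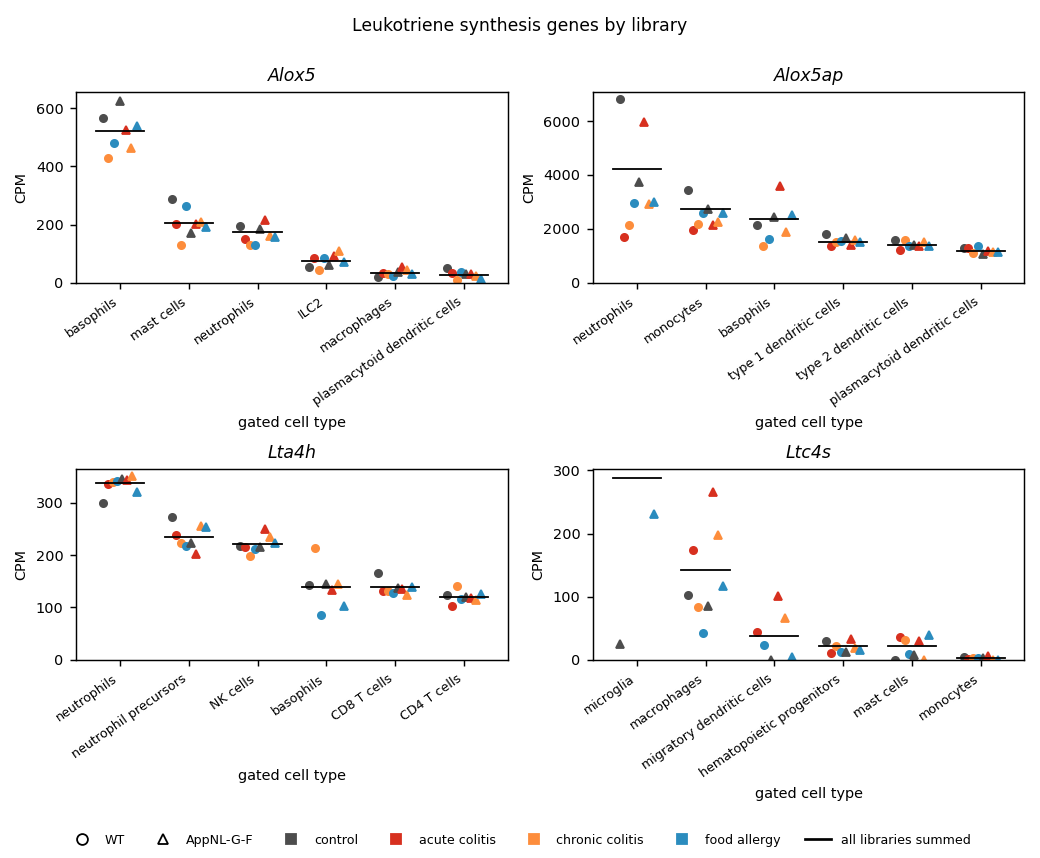
Each panel shows the CPM (linear axis from 0) of 1 leukotriene gene in its 6 highest cell types, with 1 point per library of at least 10 cells (circles WT, triangles AppNL-G-F, colours for treatment) and a line at the level with all libraries summed, which for microglia includes libraries of fewer cells. The basophil points of Alox5 (428 to 625 CPM) lie above all others, and the neutrophil points of Alox5ap run from 1710 to 6802 CPM.

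Among the cyclooxygenases, Ptgs1 was highest in microglia. They held 252 CPM, with 223 CPM in AppNL-G-F control and 266 CPM in AppNL-G-F food allergy, both above every library of every other type. Macrophages followed with 44.8 CPM (23.5 to 66.1), mast cells with 23.7 CPM (0 to 68.1), and neutrophils with 20.4 CPM (12.2 to 31.1), although neutrophils held 37.4% of its UMIs. A UMI was found in 50.0% of microglia (35.1% after thinning) and in 2 of 6980 B cells.

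Ptgs2 had no single leading cell type. Type 2 dendritic cells had 94.3 CPM (38.3 to 161), monocytes 87.7 CPM (22.0 to 188) and fibroblasts 87.4 CPM (45.1 to 114 in 6 libraries), and the ranges of these 3 types overlapped. Neutrophils had 42.9 CPM, gamma-delta T cells 42.8 CPM and basophils 33.0 CPM, with wide ranges of 3.03 to 254, 0 to 190 and 0 to 200 CPM. Macrophages held 31.8 CPM (20.1 to 56.1). A UMI was found in 23.5% of type 2 dendritic cells, 21.9% of monocytes and 14.8% of neutrophils, and after thinning in 9.01%, 8.80% and 6.68%, against 0.0573% of B cells. Of all Ptgs2 UMIs, 40.8% came from neutrophils and 16.9% from monocytes.

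Of the terminal synthases, Ptges shared fibroblasts with Ptgs2 as a leading type, and Hpgds was highest in other cells. Ptges, the inducible prostaglandin E synthase, stood out in fibroblasts, with 107 CPM (80.7 to 196 in 6 libraries) and a UMI in 38.2% of 296 cells (17.6% after thinning). The next types were basophils with 5.11 CPM and neutrophils with 4.75 CPM, all of whose libraries lay below every fibroblast library. These fibroblasts were a minor cell type in a sort for CD45.2, and 3.12% to 21.1% of them per library with at least 10 cells carried several hashtags. Hpgds, the hematopoietic prostaglandin D synthase, was highest in mast cells, with 239 CPM (192 to 299 in 8 libraries) and a UMI in 41.4% of 307 cells (32.1% after thinning). Microglia had 189 CPM, with 247 and 301 CPM in the libraries of AppNL-G-F control and food allergy, which overlapped mast cells. The summed level lies below both, so the microglia of the libraries with fewer than 10 of them were lower together. Macrophages followed with 66.8 CPM (28.6 to 99.1), apart from both, and held 45.9% of the UMIs. No basophil had an Hpgds UMI, and 3 UMIs, the limit that a count of 0 allows, would be 1.18 CPM.

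Hpgd, which inactivates prostaglandins, was highest in microglia at 292 CPM (618 CPM in AppNL-G-F control and 405 CPM in AppNL-G-F food allergy). Macrophages had 185 CPM (84.7 to 263) and 47.3% of its UMIs, fibroblasts 123 CPM (66.9 to 157), type 2 dendritic cells 78.1 CPM (24.0 to 135) and monocytes 59.8 CPM (24.8 to 187). The 2 microglia libraries lay above all macrophage libraries, and the ranges from macrophages down to monocytes overlapped each with the next. Of monocytes, 18.4% had a UMI, 6.99% after thinning, against 0.158% of B cells. In the summed cells, macrophages held Ltc4s, Ptgs1, Hpgds and Hpgd at 44.8 CPM (the level of Ptgs1) or more, and microglia held each at a higher level. The value of 44.8 CPM was read from the macrophages and is no preset limit.

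Alox15 was a gene of basophils in these data. Of its 216 UMIs, 192 (88.9%) were in basophils, at 75.5 CPM, and no library of another type reached the lowest basophil library. The values were 119, 27.6 and 64.3 CPM in WT control, chronic colitis and food allergy and 114, 65.5, 59.4 and 54.8 CPM in AppNL-G-F mice in the order control, acute colitis, chronic colitis, then food allergy. Both control libraries lay above the treated libraries. WT acute colitis had 8 basophils and 19.4 CPM. Basophils were too few for a test between treatments, and the summed level of 6 basophil markers was also lower in some treated libraries, from 8706 CPM in WT acute colitis to 69124 CPM in WT control. Macrophages, which express Alox15 in the peritoneal cavity, had 1 UMI in 2285 cells, and B cells none in 6980.

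Basophils with an Alox15 UMI (131 of 383) had more UMIs per cell, a median of 6136 against 3751. A UMI of Alox5 was found in 83.2% of them and in 77.0% of the others, and Alox12e, another lipoxygenase, in 32.1% and 21.4%. None had an Ltc4s UMI, against 2.38% of the others. The basophils of all libraries were pooled in these comparisons. Eosinophils, another cell type known for Alox15, were looked for by their markers: the summed level of 7 eosinophil genes in basophils was 28.6 to 2744 CPM in 7 libraries and 21749 CPM in WT chronic colitis, which had the lowest Alox15 level of the libraries with at least 10 basophils. None of the cells with Alox15 had a UMI of Prg2, an eosinophil granule gene.

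**Figure D3:**
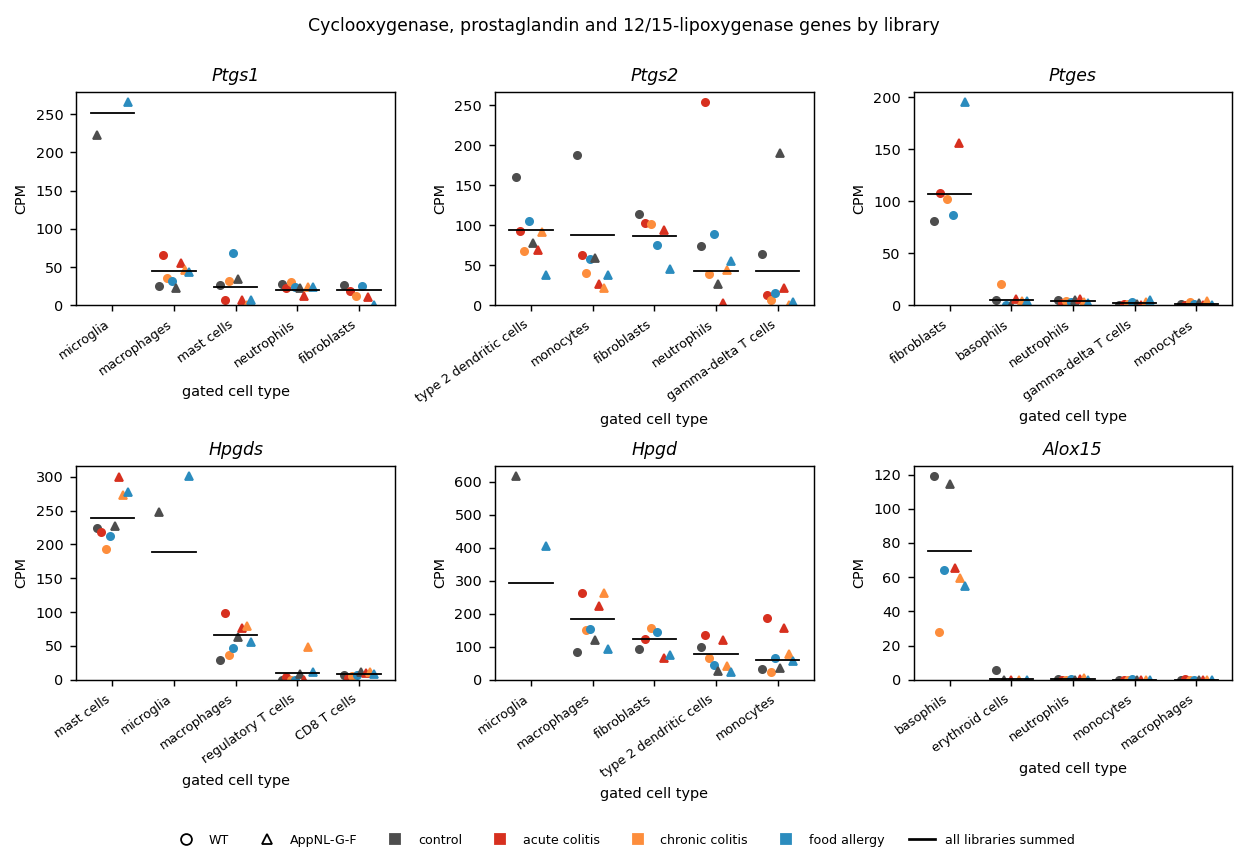
Each panel shows the CPM (linear axis from 0) of 1 gene in its 5 highest cell types, drawn as for the leukotriene genes, with 1 point per library of at least 10 cells and a line at the summed level. Ptges and Alox15 stand apart in fibroblasts and basophils, Ptgs1 in the 2 microglia libraries, and Ptgs2 spreads from 3.03 to 254 CPM over the neutrophil libraries.

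The genes whose levels over the 23 types were most like each member were named by the Pearson correlation of log2(CPM + 10), as a description across types that share libraries. Alox5 was most like Hdc (r = 0.833), the histamine-forming enzyme, then Lilr4b (0.825) and Klf7 (0.776), and Alox5ap most like Ifitm2 (0.918), Nfam1 (0.910) and Ifitm3 (0.879). Lta4h had the weakest likeness, with Eno1b (0.776), Agpat2 (0.768) and Arhgdib (0.763), and Ltc4s resembled Slco2b1 (0.882), Ch25h (0.881) and Fcrls (0.880). For Ptgs1 the genes were Cxcl13 (0.886), Pald1 (0.876) and Ch25h (0.871), and for Ptgs2 Hacd4 (0.828), Bach1 (0.740) and Oasl2 (0.738). Ptges was most like Ccdc80 (0.982) and Comp (0.978), and Hpgds like Slco2b1 (0.930), Plau (0.914) and Tgfbr1 (0.872). Hpgd was most like Abca9 (0.992), and Alox15 like Defb40 (0.9999), Alox12e (0.9999) and Grm6 (0.999), which share its single high type.

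Other genes of the pathway, in a list of 41, placed release, receptors and further enzymes. Among the phospholipase genes, Pla2g7 was highest in mast cells (737 CPM), Pla2g15 in microglia (152 CPM) and Pla2g4a, the cytosolic phospholipase that frees arachidonate, in fibroblasts (99.1 CPM). Of further leukotriene enzymes, Mgst3 led in erythroid cells (1771 CPM), Cyp4f18, which degrades leukotriene B4, in basophils (649 CPM) and Mgst1 in neutrophils (579 CPM). Among prostanoid enzymes, Ptges3 was highest in CD4 T cells (369 CPM), Akr1b3 in developing B cells (239 CPM) and Ptgis, the prostacyclin synthase, in fibroblasts (203 CPM). The transporters Abcc1, Abcc4 and Slco2a1 were highest in plasmacytoid dendritic cells (38.9 CPM), monocytes (17.6 CPM) and mast cells (3.09 CPM). ILC2 held the highest levels of the leukotriene B4 receptor gene Ltb4r1 (542 CPM), the cysteinyl leukotriene receptor gene Cysltr1 (217 CPM) and the prostacyclin receptor gene Ptgir (103 CPM). Cysltr2 was highest in gamma-delta T cells (20.2 CPM), the prostaglandin E2 receptor gene Ptger4 in migratory dendritic cells (102 CPM) and the thromboxane receptor gene Tbxa2r in plasmacytoid dendritic cells (93.4 CPM).

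Whether the genes differed with genotype or treatment was tested with edgeR's quasi-likelihood test on UMIs summed per library, in the 15 types with at least 20 cells in every library. The fit was additive, so that genotype rested on 4 against 4 libraries and each treatment on 2 libraries (1 of each genotype) against the same 2 controls. A pair of gene and type was called at an adjusted p below 0.05, adjusted over all genes tested in that type and contrast. Of 150 pairs of member and type, 60 passed the filter on low counts, over 9 of the 10 genes, and Alox15 was in none. For genotype, 1 pair was higher and 1 lower in AppNL-G-F, where 0.207% of all gene and type pairs were called, 0.152% lower. Acute colitis had 2 pairs higher and 3 lower (0.66% of all pairs called, 0.429% lower), chronic colitis 2 lower (0.633%, 0.427% lower) and food allergy 2 lower (0.299%, 0.21% lower). At an unadjusted p below 0.05 there were 14, 19, 14 and 10 pairs. The median log2 difference over the tested pairs was 0.06 for genotype and 0.05, 0.00 and 0.05 for the treatments. Each library pools the samples of its condition, and the labels tie no cells to an animal, so these tests measure the spread between libraries only.

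Of these 11 calls, 7 were of Ptgs2, in monocytes and gamma-delta T cells. In monocytes it was lower in each treatment than in control and lower in AppNL-G-F than in WT. The levels were 188, 62.5, 40.3 and 57.6 CPM in WT control, WT acute colitis, WT chronic colitis and WT food allergy, and 59.2, 26.4, 22.0 and 38.6 CPM in AppNL-G-F. WT control stood far above all others, whereas AppNL-G-F control overlapped the treated WT libraries. On the log2 scale Ptgs2 fell by 1.5 (SE 0.27, adjusted p = 0.00683) in acute colitis, by 2.01 (SE 0.26, adjusted p = 0.000449) in chronic colitis and by 1.34 (SE 0.23, adjusted p = 0.0109) in food allergy, and by 1.18 (SE 0.19, adjusted p = 0.0292) in AppNL-G-F. In monocytes 4.5%, 5.47%, 1.04% and 0.141% of all genes were called in these contrasts. The values rest on 60 to 354 monocytes per library. After thinning to 1500 UMIs, the share of monocytes with a Ptgs2 UMI was 15.6% and 7.94% in WT and AppNL-G-F control and 2.17% to 8.64% in the treated libraries.

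These calls depended on single libraries. The lone library of an arm was then assumed to vary like the other groups. Ptgs2 in acute colitis was no longer called without WT acute colitis (adjusted p = 0.347) or WT control (0.268), and in chronic colitis without WT chronic colitis (0.0650). In food allergy the call was lost without WT control (0.646) or WT food allergy (1), and for genotype without WT control (0.433), AppNL-G-F control (0.490), WT acute colitis (0.154) or AppNL-G-F acute colitis (0.164). The difference stayed negative in every fit. Over all 14 alternatives the adjusted p ran from 4.52e-08 to 0.347 for acute colitis, 7.95e-15 to 0.0650 for chronic colitis, 3.06e-08 to 1 for food allergy and 3.55e-08 to 0.851 for genotype. The lowest value of each range came from the fit without the filter on low counts. By DESeq2 the adjusted p was 0.0387, 0.000564, 0.257 and 0.851 in that order.

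The monocytes themselves differed between the libraries. Chil3, a marker of classical monocytes, was at 8136 and 5674 CPM in the WT and AppNL-G-F control libraries and between 478 and 1419 CPM in the treated ones, while Ly6c2, another, was at 1140 and 1156 CPM in controls and 1362 to 2762 CPM in treated libraries. The summed macrophage markers were 6010 and 4549 CPM in controls and 994 to 3466 CPM in treated libraries, and those of neutrophils ranged from 124 to 5506 CPM. Summed immediate-early genes in monocytes were 14062 and 10640 CPM in controls and 5374 to 10596 CPM in treated libraries. The part of marker composition in the Ptgs2 differences was not tested. With the hashtag groups as samples and the immediate-early level of T cells as a covariate, the log2 difference of Ptgs2 was -2.83 in acute colitis (adjusted p = 0.000125), -2.03 in chronic colitis (0.000316), -1.5 in food allergy (0.00253) and -1.09 for genotype (0.564). The genotype call was also lost with hashtag groups and no covariate (0.121). Hashtag groups of a library share its pool and are not known to be separate animals, so these adjusted p do not measure a spread between independent samples. The groups with at least 20 monocytes all lay at 3134 to 6149 CPM of the immediate-early level in T cells. Low levels were thus not covered by the covariate. Monocytes with a Ptgs2 UMI (283 of 1291) had a UMI of Il1b, the interleukin-1 beta gene, in 69.6% of cells against 51.3% of the others. The medians were 7855 and 7225 UMIs per cell, and 1 of the 283 (0.353%) had a UMI of Ptges. Libraries and hashtag groups were pooled in this comparison.

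In gamma-delta T cells, Ptgs2 was highest in the control libraries, which lay above the 6 treated libraries. The levels were 64.4, 13.3, 7.17 and 16.1 CPM in WT control, WT acute colitis, WT chronic colitis and WT food allergy, and 190, 21.7, 0 and 4.85 CPM in AppNL-G-F. In AppNL-G-F the UMIs behind them were 132, 8, 0 and 4, and in WT 68, 9, 5 and 9. The log2 level fell by 2.74 (SE 0.52, adjusted p = 0.0219) in acute colitis, by 4.93 (SE 0.65, adjusted p = 0.00132) in chronic colitis and by 3.74 (SE 0.54, adjusted p = 0.00274) in food allergy. Of all genes, 0.889%, 1.12% and 1.09% were called. The chronic colitis call held without any 1 library. The acute colitis call was lost without WT acute colitis (0.431), AppNL-G-F acute colitis (0.316) or AppNL-G-F control (0.0703), and that of food allergy without AppNL-G-F food allergy (0.248).

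A single hashtag group held most of these UMIs. Hashtag 7 of AppNL-G-F control had 124 Ptgs2 UMIs in 74 cells (435 CPM), hashtag 6 of that library 5 UMIs in 75 cells (19.6 CPM), and the 2 WT control groups 74.0 and 47.3 CPM. Without the cells of that group, an alternative added after the values had been seen, the difference in chronic colitis was -3.48 (adjusted p = 0.0354), that in acute colitis -1.44 (0.441) and that in food allergy -2.05 (0.218). By DESeq2 none of the 3 was called (adjusted p = 0.9999, 0.0753 and 0.688 for acute colitis, chronic colitis and food allergy). Over 13 alternatives the adjusted p ran from 4.14e-15 to 0.9999, 4.28e-32 to 0.0753 and 1.89e-26 to 0.688 in that order. The lowest value of each range came from the edgeR fit without the filter on low counts. Another scaling in edgeR gave 0.0255, 0.00160 and 0.00326. The 84 gamma-delta T cells with a Ptgs2 UMI had a UMI of Il17a, the interleukin-17A gene, in 60.7% against 25.1% of the other cells and of Nr4a1, an immediate-early gene, in 59.5% against 22.1%. The medians were 4400 and 3462 UMIs per cell, and libraries and hashtag groups were pooled in this comparison. S100a8, an abundant neutrophil gene, was in 8.33% against 14.3%.

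Hpgd, which breaks down prostaglandins, changed the other way from Ptgs2 in monocytes of acute colitis mice. It had 33.1, 187, 24.8 and 65.0 CPM in WT control, WT acute colitis, WT chronic colitis and WT food allergy and 34.3, 156, 79.1 and 57.2 CPM in AppNL-G-F. Both acute colitis libraries lay above the 6 others. After thinning, a UMI was found in 20.7% and 13.8% of monocytes in WT and AppNL-G-F acute colitis and in 1.54% to 7.82% in the other libraries. The log2 level was 2.31 higher than in control (SE 0.31, adjusted p = 0.000885), and the call held in 13 of 14 alternatives, all but the fit without WT acute colitis (adjusted p = 0.145, range from 2.54e-21). Summed markers of patrolling (non-classical) monocytes were 141 and 200 CPM in WT and AppNL-G-F acute colitis and 59.6 and 94.1 CPM in the controls. The other treated libraries ranged from 48.5 to 269 CPM, and the part of these markers in the Hpgd difference was not tested. In type 2 dendritic cells Hpgd had 119 CPM in AppNL-G-F acute colitis and 25.5 CPM in its control, a ratio of 4.69 between these libraries with a counting interval of 2.77 to 8.40, whereas WT had 135 CPM in acute colitis and 101 CPM in control. Alox5ap fell in the same monocytes, from 3448 and 2752 CPM in WT and AppNL-G-F control to 1949 and 2128 CPM in acute colitis, by 0.66 on the log2 scale (SE 0.16, adjusted p = 0.0347). The 6 treated libraries ranged from 1949 to 2606 CPM, below both controls. That call was lost without WT control (0.170), WT acute colitis (0.391), WT food allergy (0.0831), AppNL-G-F acute colitis (0.0842) or AppNL-G-F food allergy (0.0819), in a range of 0.000637 to 0.391 over 14 alternatives.

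In macrophages, Ptgs1 rose in acute colitis. Its levels were 25.5, 66.1, 35.4 and 32.0 CPM in WT control, WT acute colitis, WT chronic colitis and WT food allergy, and 23.5, 54.9, 46.7 and 44.3 CPM in AppNL-G-F. Both controls lay below the 6 treated libraries, and both acute colitis libraries above all others. The log2 difference from control was 1.32 (SE 0.25, adjusted p = 0.0303), where 0.939% of all genes were called in macrophages. It was lost without WT control (0.119), WT acute colitis (0.277), WT food allergy (0.0552), AppNL-G-F control (0.0557) or AppNL-G-F food allergy (0.0580), and in 6 of 14 alternatives (0.000105 to 0.282). The other genes that macrophages share with microglia did not pass the test in acute colitis. The log2 difference was 1.24 for Hpgd (adjusted p = 0.0770), 1.17 for Ltc4s (0.0911) and 1.0 for Hpgds (0.218). Hpgd had 84.7 and 121 CPM in the WT and AppNL-G-F controls and 262 and 222 CPM in acute colitis, and Hpgds 28.6 and 62.9 CPM against 99.1 and 76.1 CPM. The summed microglia markers in macrophages were 562 and 1068 CPM in the controls and 1069 and 1031 CPM in acute colitis, and between 19.3% and 38.7% of macrophages per library carried several hashtags. The part of either in these values was not tested.

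The remaining call was Alox5ap in NK cells, 1.64 higher in AppNL-G-F on the log2 scale (SE 0.31, adjusted p = 0.0372, with 0.602% of all genes called). The levels were low, 3.49, 6.35, 2.13 and 5.84 CPM in WT control, WT acute colitis, WT chronic colitis and WT food allergy, and 4.75, 24.8, 9.27 and 18.6 CPM in AppNL-G-F. Neutrophil markers moved with them, at 8.98, 169, 73.2 and 172 CPM in WT and 116, 457, 193 and 724 CPM in AppNL-G-F in the same order, and their part was not tested. The call held in 4 of 12 alternatives (adjusted p 2.08e-05 to 0.813), and of the fits without 1 library in those without WT control (0.0230) and AppNL-G-F control (0.0246), while the others gave 0.0865 to 0.328.

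**Figure D4:**
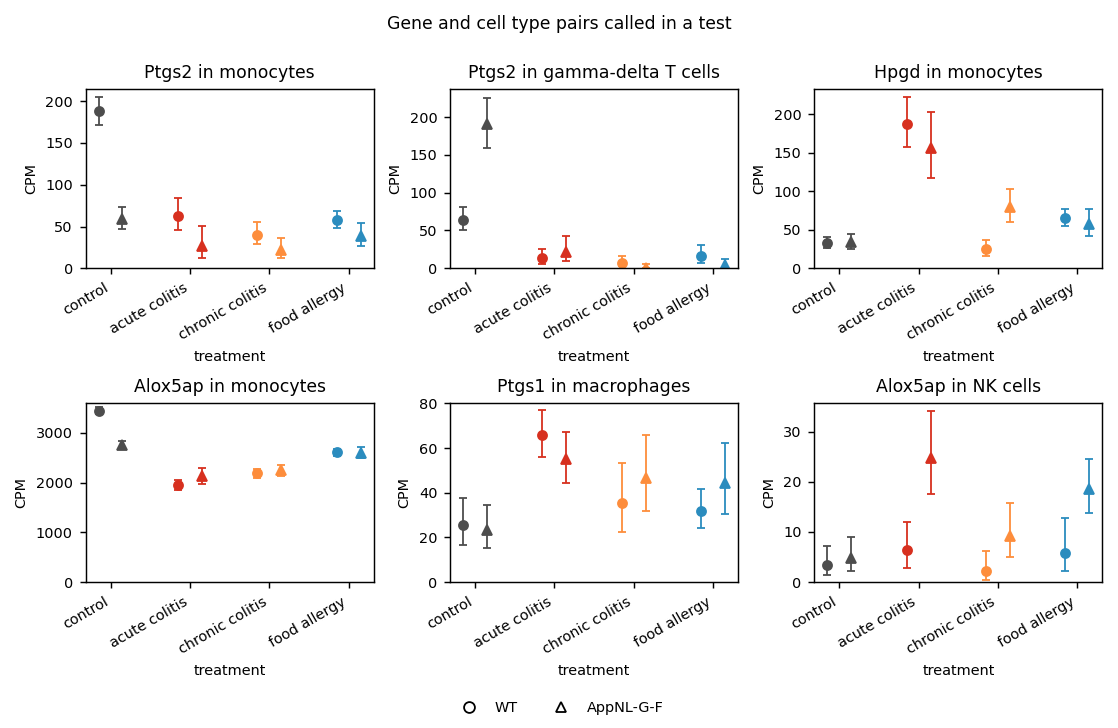
Each panel shows the CPM (linear axis from 0) of a gene in a cell type called in a test, 1 library per point (circles WT, triangles AppNL-G-F), with 95% counting intervals. Ptgs2 in gamma-delta T cells is highest in the control libraries (64.4 and 190 CPM), and Hpgd in monocytes in acute colitis (187 and 156 CPM).

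Set against these, Lta4h was not called in any of the 4 contrasts in the tested types, and neither were Alox5, Ltc4s, Ptges and Hpgds. The highest types of Alox5 (basophils), Ltc4s (microglia), Ptges (fibroblasts) and Hpgds (mast cells) had too few cells for the test. In neutrophils no member passed a test, and of all genes in neutrophils at most 0.0102% were called in a contrast. The log2 SE in acute colitis in neutrophils was 0.68 for Alox5ap and 1.21 for Ptgs2. Sizeable differences of these genes could thus go undetected. The additive fit also takes a common difference for both genotypes. For Ptgs2 in neutrophils the log2 difference in acute colitis was 1.85 without AppNL-G-F acute colitis and -3.39 without WT acute colitis. For Alox5ap it was -1.94 without AppNL-G-F acute colitis. Alox5 in neutrophils was 0.44 higher in AppNL-G-F (SE 0.22, adjusted p = 0.816), and Alox5ap was 1.28 lower in chronic colitis than in control (SE 0.66, adjusted p = 0.742).

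Single libraries were also compared as ratios, without a test, for pairs with at least 50 UMIs over both libraries. A ratio of at least 2 in either direction was reached in 60 of 368 pairs of member, type and comparison (28 higher, 32 lower), or 16.3%, where the share over all genes was 4.26%. By comparison the members' count was 10 of 50 for WT acute colitis against its control (6.41% over all genes), 8 of 48 for WT chronic colitis (6.24%), 11 of 59 for WT food allergy (5.13%), 13 of 59 for AppNL-G-F acute colitis (4%), 5 of 47 for AppNL-G-F chronic colitis (2.34%), 5 of 52 for AppNL-G-F food allergy (1.84%) and 8 of 53 for AppNL-G-F control against WT control (4.05%). The genes differed widely among themselves. Ptgs2 reached the ratio in 23 of 41 pairs, Ltc4s in 5 of 9, Hpgd in 10 of 25, Alox15 in 2 of 6 and Alox5ap in 14 of 89, but Alox5 in 2 of 41, Ptgs1 in 2 of 20, Hpgds in 2 of 13, Ptges in 0 of 4 and Lta4h in 0 of 120. The comparisons share control libraries, so the pairs are not independent.

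Some of the Alox5ap ratios lay in fibroblasts, erythroid cells and plasma cells. In fibroblasts it went from 1 UMI (6.73 CPM) in WT control to 308 UMIs (517 CPM) in WT food allergy, where the summed neutrophil markers went from 0 to 35834 CPM. In erythroid cells it went from 39.2 CPM in AppNL-G-F control to 409 CPM in AppNL-G-F acute colitis. Plasma cells in WT chronic colitis and food allergy and in AppNL-G-F acute colitis held 163, 191 and 162 CPM against 54.8 CPM in WT control and 43.2 CPM in AppNL-G-F control. The part of neutrophil RNA in these values was not tested.

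Ptgs2 in neutrophils followed the immediate-early level of the hashtag groups. In the 7 groups with less than 2000 CPM of immediate-early genes in T cells (596 to 972 CPM), all of AppNL-G-F, 1833 neutrophils held 8 Ptgs2 UMIs, and the groups had 0 to 18.8 CPM. In the 16 groups above it (3134 to 6149 CPM), 2846 neutrophils held 1536 UMIs and the groups had 18.3 to 284 CPM, with a median of 85.8 CPM. The ranges of the 2 sets of groups met at 18.3 to 18.8 CPM. Most neutrophils of the low groups came from hashtag 7 of AppNL-G-F acute colitis. In that library 88.1% of neutrophils were in a cluster led by Asprv1, whose cells over all libraries had 0.585 CPM of Ptgs2. The part of that cluster in these values was not tested. Gamma-delta T cells had no Ptgs2 UMI in the 6 low groups (159 cells) and 0 to 435 CPM in the 16 high ones. For monocytes, with at least 20 cells in high groups only, the range was 8.89 to 217 CPM. The sets were defined from the data, and which sample each hashtag number marks is not given in the sources used here.

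**Figure D5:**
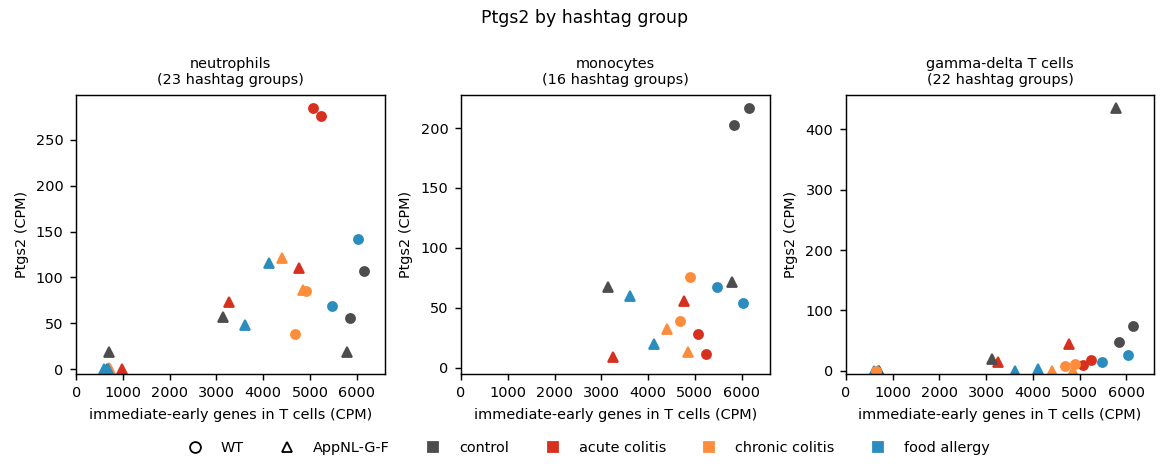
Each point is a hashtag group with at least 20 cells of the type, with the summed CPM of 10 immediate-early genes in its T cells on the x axis and the Ptgs2 CPM of its neutrophils, monocytes or gamma-delta T cells on the y axis, colours and shapes as before. The 7 low groups of neutrophils lie at 0 to 18.8 CPM, and 1 gamma-delta T cell group of AppNL-G-F control lies at 435 CPM.

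Among the 41 other pathway genes, 260 of 615 pairs were tested. For genotype 0 pairs were called by edgeR (18 at an unadjusted p below 0.05; 0.207% of all pairs called). Acute colitis had 2 pairs higher and 10 lower (0.66%), chronic colitis 2 higher and 5 lower (0.633%) and food allergy 1 higher and 2 lower (0.299%). In monocytes 22 of the genes were tested, with 1 higher and 5 lower in acute colitis (4.5% of all genes called), 4 lower in chronic colitis (5.47%) and 2 lower in food allergy (1.04%). There Pla2g7, which hydrolyses platelet-activating factor and oxidized phospholipids, fell by 1.96 in acute colitis (SE 0.17, adjusted p = 4.88e-05), by 2.15 in chronic colitis and by 1.32 in food allergy. Dpep2, a dipeptidase of the cysteinyl leukotriene pathway named after its values were seen, fell by 1.99, 1.99 and 1.12 in the same order. Cyp4f18 fell by 1.0 in acute and 0.89 in chronic colitis, and Ltb4r1 by 0.92 and Ptgir rose by 2.52 in acute colitis. Ggt5, a gamma-glutamyl transferase named after its values were seen, had -2.69 in acute and -3.73 in chronic colitis. Its mean level in control monocytes was 23.9 CPM. In macrophages Pla2g7 was also lower in acute colitis, at -1.13 (SE 0.18, adjusted p = 0.00908 by edgeR), where 0.939% of all genes were called. In ILC2 the receptor gene Cysltr1 rose in all 3 treatments, by 0.71, 0.80 and 0.64 (adjusted p = 0.0142, 0.00493 and 0.0206), where 1.56%, 1.56% and 2.31% of all genes were called. The summed ILC2 markers moved as well, at 6798 and 6585 CPM in WT and AppNL-G-F control and 2418 to 4769 CPM in the treated libraries, and their part was not tested. In type 2 dendritic cells 3 of 17 genes tested were lower in acute colitis (1.2% of all genes called) and 1 in chronic colitis (0.534%).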

How the data were processed

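The authors prepared 5′ libraries with 10x Genomics reagents and aligned the reads to mm10 by Cell Ranger (version 6.1.2 per the submitters' processing notes, whereas the file headers name version 4). The deposited matrices hold raw UMI counts for all barcodes, empty droplets included. Cells were called here as barcodes above an order-of-magnitude cutoff for 3000 expected cells, or with at least 500 UMIs and a profile that differed from that of barcodes ranked 45000 to 90000 (1000 simulations, false discovery rate 0.01), and were kept with 200 genes or more and no more than 5% of UMIs from mitochondria. Kept cells held 25616824 to 54618574 UMIs per library.

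For clustering (Leiden, resolution 0.5, 20 neighbours on 30 components) log values scaled to 10000 UMIs per cell were taken over 2000 variable genes, the members and the pathway list left out. Clusters were named from marker lists. No doublet caller was run, and clusters in which over 50% of cells passed the cutoffs of several hashtags were left unnamed. Sums per type and library were tested in the 15 types with at least 20 cells in every library with edgeR 4.0.16 (TMM, filterByExpr, glmQLFit and glmQLFTest, genotype and treatment additive, Benjamini-Hochberg adjustment over all genes of a type and contrast). DESeq2 1.42.0, another scaling, no filter, cells with 1 hashtag, hashtag groups as samples and leaving out each library were alternatives. An interaction could not be tested with 1 library per condition. The code was tested on simulated data with 200 changed genes at an assumed dispersion of 0.1, where it recovered 17% of 2-fold and 100% of 4-fold changes among 9576 genes of neutrophils, whose measured genes can vary more. Python 3.11.15, numpy 2.4.6, scipy 1.17.1, pandas 2.3.3, scikit-learn 1.9.0, igraph 0.11.9, scanpy 1.11.5, matplotlib 3.10.9 and R 4.3.3 were used.

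Counting intervals are exact 95% intervals and, like the limit of 3 counts for a value of 0, cover counting error only. Genes were named by rule: every member, the 3 pathway genes of each role with the highest level in a type, and the 3 genes most like each member over the types among 7381 genes with at least 50 CPM in a type and outside the marker lists. Some of the genes most like Ptges and Hpgd are not reported here. The members and lists were chosen with earlier results of these data known. Free RNA, from barcodes without cells, could give at most a median of 0.163% (hematopoietic progenitors) to 8.88% (plasma cells) of the UMIs of a type, and in single libraries up to 36.6% in fibroblasts, 30.5% in macrophages, 27.3% in plasma cells and 21.7% in neutrophils, an upper bound set by neutrophil and immunoglobulin genes. V(D)J sequences were not used here.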

Additional observations from a re-analysis of the deposited data

Results flagged for a closer look

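Ptgs2 in neutrophils differed in direction between the genotypes in acute colitis. In WT it was higher in acute colitis than in control, 254 against 74.8 CPM, a ratio of 3.40 (counting interval 2.78 to 4.16). In AppNL-G-F it was lower, 3.03 against 26.3 CPM, a ratio of 0.115 (0.0810 to 0.163). There was 1 library for each genotype and treatment, so the difference between the ratios was not tested.

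The neutrophils of these libraries came from different clusters and hashtag groups. In WT acute colitis, 96.4% of neutrophils were in the larger of 2 clusters led by G0s2, where Ptgs2 had 77.0 CPM over all libraries. In AppNL-G-F acute colitis, 88.1% were in a cluster led by Asprv1, whose 2178 neutrophils over all libraries had 12 Ptgs2 UMIs (0.585 CPM), while 9.67% were in the larger and 2.24% in the smaller cluster led by G0s2. Within the larger, Ptgs2 had 272 CPM in WT acute colitis and 68.4 CPM in WT control, and 40.2 CPM in AppNL-G-F acute colitis and 31.6 CPM in AppNL-G-F control. Hashtag 7 of AppNL-G-F acute colitis held 1205 neutrophils with 0.312 CPM, and hashtags 4 and 5 held 52 and 37 neutrophils with 110 and 72.8 CPM. In WT acute colitis the groups had 276 and 284 CPM. The summed immediate-early genes in neutrophils moved with these values, at 13120 and 8580 CPM in WT acute colitis and control and 1121 and 5478 CPM in AppNL-G-F acute colitis and control. Their part in the difference was not tested.

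Within single libraries, 12 sets of 4 hashtag groups (levels of Ptgs2, Alox5 or Alox5ap in a cell type) were examined for a group far from the others, and none had one by Dixon's criterion. With 4 values per set, the criterion flags extreme gaps only. Sets with fewer groups were not covered, among them those of AppNL-G-F acute colitis, which had no cells assigned to hashtag 6. The 8 libraries are 8 conditions and were not examined this way.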

How the results depend on the processing

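After thinning to 1500 UMIs per cell, the shares of cells with a UMI were lower: 53.7% for Alox5 and 14.4% for Alox15 in basophils, 28.5% for Lta4h in neutrophils, 9.01% for Ptgs2 in type 2 dendritic cells, 17.6% for Ptges in fibroblasts, 32.1% for Hpgds in mast cells and 33.3% for Hpgd in microglia. With libraries weighted equally, microglia had 128 CPM of Ltc4s, below macrophages (133 CPM), and 511 CPM of Hpgd, Hpgds was highest in microglia (274 CPM, mast cells 240 CPM) and Ptgs2 in fibroblasts (89.2 CPM). At a clustering resolution of 1, Ptgs2 was highest in monocytes (89.9 CPM, type 2 dendritic cells 72.5 CPM). The number of members called for genotype was 2, and 0 with DESeq2, with cells of 1 hashtag, with hashtag groups as samples and with the immediate-early covariate, 6 without the filter and 1 to 2 without 1 library. For acute colitis it was 5, and 3 with DESeq2, 10 with hashtag groups, 9 with the covariate, 14 without the filter and 1 to 7 without 1 library. For chronic colitis it was 2, and 5 without the filter and 1 to 3 without 1 library. For food allergy it was 2, and 0 with DESeq2, 1 with hashtag groups, 1 with the covariate, 4 without the filter and 1 to 2 without 1 library. Of the 11 single calls, no alternative turned the direction, 106 values stayed on their side of the threshold and 43 did not. In gamma-delta T cells hashtag groups could not be fitted. Ratios of at least 2 between single libraries numbered 60, 55 of 327 pairs with cells of 1 hashtag (45 shared) and 71 of 381 in whole clusters (59 shared). Depth limits Alox15 and Ptges, with 216 and 548 UMIs in all cells.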

Other observations

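In type 2 dendritic cells, 3 of 17 pathway genes tested were lower in acute colitis by edgeR's quasi-likelihood test, where 1.2% of all genes were called. Ggt5, a gamma-glutamyl transferase that can act on leukotriene C4, had a log2 difference of -1.91 (SE 0.31, adjusted p = 0.00800) in acute and -2.24 (SE 0.40, adjusted p = 0.0230) in chronic colitis, Cyp4f18 of -1.68 (SE 0.27, adjusted p = 0.00767) and Ptgds, the lipocalin-type prostaglandin D synthase, of -3.71 (SE 0.70, adjusted p = 0.0207) in acute colitis. In type 1 dendritic cells the prostaglandin E2 receptor gene Ptger2 had -1.59 (SE 0.28, adjusted p = 0.0153) in acute colitis. In gamma-delta T cells Cysltr1 had 1.59 (SE 0.36, adjusted p = 0.0493) in chronic colitis. Ggt5, Ptgds and Ptger2 were named after their values were seen.

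Neutrophils with a Ptgs2 UMI (861 of 5836) had a UMI of Il1b in 86.6% and of Fos in 97.2% of cells, against 32.3% and 63.1% of the others, although they were shallower (median 4934 against 7433 UMIs). Alox5 was found in 48.7% of them against 61.0%, and Ptges in 2.90% against 3.82%. Libraries, hashtag groups and clusters were pooled in these comparisons. In the neutrophil cluster led by Asprv1, 0.505% of cells had a Ptgs2 UMI and 73.1% an Alox5 UMI. The shares were 25.1% and 57.2% in the larger cluster led by G0s2, and 15.7% and 25.9% in the smaller. The part of the clusters in these shares was not tested. In fibroblasts with a Ptges UMI (113 of 296), Ptgs2 was found in 28.3% and Hpgd in 41.6% of cells, against 18.0% and 27.9% of the others, which were shallower (median 6863 against 4209 UMIs). By level, Ptgs2 had 92.5 against 82.4 CPM, and Hpgd was lower in the cells with Ptges, 111 against 135 CPM. The fibroblasts of all libraries were pooled.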
